A study of Mus musculus with 2 samples.

Results

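The ubiquitin, Nedd8, Sumo and Uchl1 genes examined here were Ubb, Nedd8, Sumo2 and Sumo3, which encode small protein modifiers, Uba1, which encodes the enzyme that activates ubiquitin, and Uchl1, which encodes a deubiquitinase. They were chosen by symbol: every row of the gene and the transcript tables whose Ensembl identifier belongs to 1 of these symbols in mouse GENCODE was taken. All 6 were found, of 43346 Ensembl genes listed, together with 29 transcripts. The source was newborn B6NCrl mice (postnatal day 0), with no treatment named in the labels, and the tissue was forebrain. Each library was made from 13 pg of RNA longer than 200 nt, which the labels equate with 1 cell. The RNA was extracted from whole forebrain tissue and taken through a Smart-seq protocol, a full-length cDNA amplification, so a library samples a mixture of many cells. The 2 libraries form 1 group, pup 1 (replicate 1) and pup 3 (replicate 2). The labels describe different pups but give both the same donor identifier, and sex was not collected. With 1 library per pup no test between them was possible, and differences between animals and between amplifications cannot be told apart. In RNA from a tissue, fewer cells of a type and less RNA per cell cannot be told apart either.

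Ubiquitin is a small protein that is joined to lysines of other proteins, where chains of it can mark the target for the proteasome or change how it is sorted or bound. It is always made as a fusion, either as a head-to-tail chain of ubiquitins (as in Ubb) or in front of a ribosomal protein (as in Rps27a), and it is cut free before use. Nedd8 and the Sumo proteins share its fold and are attached by enzyme cascades of their own: Nedd8 mainly to cullins, the scaffolds of a large class of ubiquitin ligases, and Sumo to many nuclear proteins. Uba1 is the E1 enzyme at the head of the ubiquitin cascade. Uchl1 is a very abundant protein of neurons that hydrolyses ubiquitin at its carboxyl end and binds free ubiquitin.

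The ubiquitin chain of Ubb is shown first, because its repeats bear on how its reads can be placed. In the GENCODE M21 transcript Ubb-201 (mm10 chromosome 11, 62551171 to 62553213, plus strand) the coding sequence held 915 bases before the stop codon. These were 4 units of 228 bases (76 codons each) and 1 further codon. Capitals mark the 11 positions at which the units differ, 10 of them at the third position of a codon. All 4 units translate to the same peptide.
Ubb unit 1: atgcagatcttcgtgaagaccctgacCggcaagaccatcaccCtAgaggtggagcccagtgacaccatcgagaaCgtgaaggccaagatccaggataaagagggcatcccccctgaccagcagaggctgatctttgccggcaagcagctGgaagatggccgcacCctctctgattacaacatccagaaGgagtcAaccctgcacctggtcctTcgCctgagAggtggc
Ubb unit 2: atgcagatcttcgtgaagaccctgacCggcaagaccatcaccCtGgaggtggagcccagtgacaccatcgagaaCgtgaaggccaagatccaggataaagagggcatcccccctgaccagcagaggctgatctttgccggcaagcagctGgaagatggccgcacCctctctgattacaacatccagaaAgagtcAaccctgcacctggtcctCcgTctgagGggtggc
Ubb unit 3: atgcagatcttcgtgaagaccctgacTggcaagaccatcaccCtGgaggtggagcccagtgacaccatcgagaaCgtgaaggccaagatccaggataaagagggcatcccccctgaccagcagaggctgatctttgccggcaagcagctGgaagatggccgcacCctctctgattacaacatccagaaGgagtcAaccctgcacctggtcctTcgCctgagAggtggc
Ubb unit 4: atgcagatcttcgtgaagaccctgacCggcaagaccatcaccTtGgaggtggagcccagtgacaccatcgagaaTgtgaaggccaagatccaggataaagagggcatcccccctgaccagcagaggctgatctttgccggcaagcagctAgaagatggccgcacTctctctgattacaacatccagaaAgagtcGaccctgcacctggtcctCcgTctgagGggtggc
Between any 2 of these units there were 2 to 10 mismatches. Unit 3 differed from unit 1 at 2 positions (99.1% identical), unit 2 at 5 (97.8%) and unit 4 at 10 (95.6%). The unit of Rps27a lay further off, at 80.7% identity to those of Ubb. The units run in order over chromosome 11 from 62552146 to 62553057.

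Nedd8 has 1 such unit followed by 5 codons (243 coding bases before the stop codon, chromosome 14, minus strand, spliced from between 55662532 and 55671812). Capitals mark the bases unlike unit 1 of Ubb at the same position, and the bases after the unit.
Nedd8-201: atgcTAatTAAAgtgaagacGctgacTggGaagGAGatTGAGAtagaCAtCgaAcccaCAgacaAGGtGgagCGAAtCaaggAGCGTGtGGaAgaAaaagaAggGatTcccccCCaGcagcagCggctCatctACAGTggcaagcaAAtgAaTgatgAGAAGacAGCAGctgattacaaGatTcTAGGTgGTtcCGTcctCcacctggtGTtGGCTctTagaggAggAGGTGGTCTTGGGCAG
It was 60.1% identical to unit 1 of Ubb, with 91 mismatches. It is shown as the contrast to the Ubb units: no stretch of 100 bases of Nedd8-201 occurs exactly, on the same strand, in another listed gene.

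Sumo2 and Sumo3 are the closest pair of Sumo genes, and their coding sequences are set beside each other. The first 42 coding bases of Sumo2-207 and 39 of Sumo3-202 are left out, and each runs to its stop codon (Sumo2-207 on chromosome 11, minus strand, spliced from between 115523710 and 115534662, and Sumo3-202 on chromosome 10, plus strand, from between 77609830 and 77616255). Capitals mark bases that differ between the pair or have no partner in the alignment.
Sumo2-207: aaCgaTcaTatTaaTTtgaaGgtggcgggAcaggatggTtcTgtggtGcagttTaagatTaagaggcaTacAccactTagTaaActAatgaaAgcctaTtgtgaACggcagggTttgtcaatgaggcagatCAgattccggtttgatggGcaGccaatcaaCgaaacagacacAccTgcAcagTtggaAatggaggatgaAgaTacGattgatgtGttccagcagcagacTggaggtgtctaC
Sumo3-202: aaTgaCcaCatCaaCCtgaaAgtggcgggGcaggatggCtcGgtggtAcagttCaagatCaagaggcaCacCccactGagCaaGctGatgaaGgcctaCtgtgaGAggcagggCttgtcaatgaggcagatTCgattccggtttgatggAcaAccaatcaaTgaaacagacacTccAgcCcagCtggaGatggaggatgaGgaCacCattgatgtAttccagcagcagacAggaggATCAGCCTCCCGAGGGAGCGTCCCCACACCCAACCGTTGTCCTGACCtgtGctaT
Of 282 aligned bases over the whole coding sequences 227 were identical (80.5%), with 55 mismatches. Sumo3-202 had 48 bases without a partner, most of them near its end, and Sumo2-207 had 3.

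The expected counts, which are estimated reads per gene, summed to 41082811 in pup 1 and 29881397 in pup 3. Protein-coding nuclear genes at 1 TPM or more (a level per length of transcript that has an equal total in both libraries) numbered 9048 in pup 1 and 6210 in pup 3. Spike-in RNA took 4.46% of TPM in pup 1 and 7.30% in pup 3, and mitochondrial genes took 5.02% in pup 1 and 6.003% in pup 3. The tissue label was checked against 9 marker lists, of which some are given here. Of 16 pan-neuronal markers 15 were found in both pups, and Rbfox3 was listed at 0 in pup 3. Of 12 telencephalic markers 6 were found in both pups and 4 only in pup 1. Of all nuclear protein-coding genes 24.7% were found in both pups. Of 15 hindbrain and spinal cord markers none reached 1 TPM in either pup. Of these, 14 were listed at 0 in both, as were 10059 of the 21461 nuclear protein-coding genes. The summed TPM of the neuronal list was 14115 in pup 1 and 8431 in pup 3, with 11 genes higher in pup 1 and 5 in pup 3. Of 7 erythroid genes, a sign of blood, 5 were found in both pups and 2 were listed at 0. Their summed TPM was 1750 in pup 1 and 3276 in pup 3, with 2 genes higher in pup 1 and 3 in pup 3. The part of these differences in the results below was not tested.

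All 6 genes were found in both pups, where 24.7% of 21461 nuclear protein-coding genes were, and 99.1% of the 1519 at a mean of 100 TPM or more, a class that holds all 6. Their summed TPM was 1.00% of the library in pup 1 and 0.812% in pup 3, and Ubb alone was 76.6% of their sum in pup 1 and 61.4% in pup 3. The order of the levels was the same in both pups: Ubb, Uchl1, Sumo2, Sumo3, Nedd8, Uba1. Levels below are deposited TPM. The deposited credibility interval, whose level is not stated, belongs to a posterior mean TPM that lies slightly below the TPM, so that some TPM values fall just above it. It describes the estimate from the reads of 1 library and not the spread between animals.

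Of the modifiers, Ubb (ENSMUSG00000019505) had 7685 TPM in pup 1 (interval 7469 to 7587) and 4989 TPM in pup 3 (4826 to 4925). It was higher in pup 1 and the intervals did not overlap. Its mean was 6337 ± 1907 TPM (SD, n = 2), and it ranked 3rd of the protein-coding genes in pup 1 and 7th in pup 3. Nedd8 (ENSMUSG00000010376), the modifier of cullins, had 345.2 TPM in pup 1 (329 to 348) and 222 TPM in pup 3 (209 to 226), 284 ± 87.1 TPM on average. It too was higher in pup 1, although it rests on the fewest reads of the 6, 4603 in pup 1 and 2587 in pup 3.

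The Sumo pair lay on opposite sides. Sumo2 (ENSMUSG00000020738) had 676 TPM in pup 1 (652 to 674) and 841 TPM in pup 3 (809 to 836), a mean of 759 ± 117. Sumo3 (ENSMUSG00000020265) had 369.96 TPM in pup 1 (357 to 373) and 265 TPM in pup 3 (253 to 267), a mean of 317 ± 74.2. Sumo2 was thus the lower and Sumo3 the higher in pup 1, and neither pair of intervals overlapped. The ratio of Sumo2 to Sumo3 TPM was 1.83 in pup 1 and 3.17 in pup 3.

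The activating enzyme Uba1 (ENSMUSG00000001924, chromosome X, 20658326 to 20683179) was the lowest of the 6, with 118 TPM in pup 1 (109 to 122) and 163 TPM in pup 3 (158 to 165), a mean of 140.2 ± 31.7. The deubiquitinase Uchl1 (ENSMUSG00000029223, chromosome 5, 66676091 to 66687234) had 843 TPM in pup 1 (815 to 838) and 1645 TPM in pup 3 (1590 to 1625), a mean of 1244 ± 567. Both were lower in pup 1, with intervals that did not overlap. Uchl1 ranked 119th of the protein-coding genes in pup 1 and 44th in pup 3. As a percent of Ubb TPM, Uchl1 was 10.97% in pup 1 and 33.0% in pup 3.

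**Figure D1:**
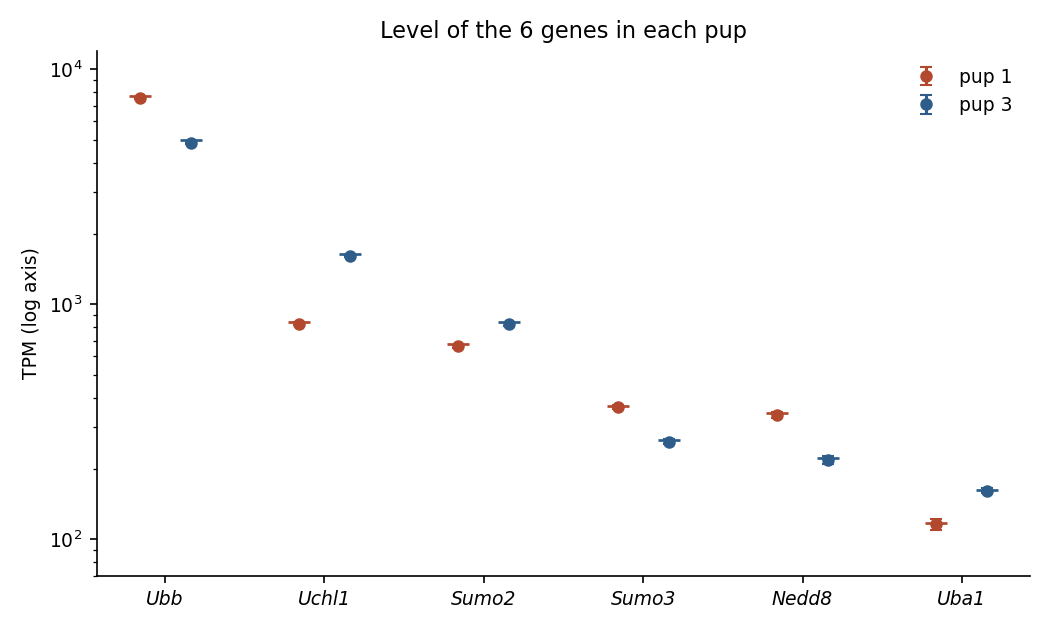
TPM (log axis) of the 6 genes in pup 1 (left point of each pair) and pup 3 (right point). Points are the posterior mean TPM with the deposited credibility interval as bars, and the horizontal dash is the deposited TPM. Ubb (7685 TPM in pup 1, 4989 TPM in pup 3) stands above the other 5 genes in both pups, and the intervals of the pups overlap for none.

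On the log2 scale, as (TPM + 1) in pup 1 over (TPM + 1) in pup 3, the difference was 0.63 for Nedd8, 0.62 for Ubb, 0.48 for Sumo3, -0.31 for Sumo2, -0.46 for Uba1 and -0.96 for Uchl1. All 6 lay within 2-fold, as did 37.1% of the 11402 protein-coding genes with any signal and 64.1% of the 1519 at a mean of 100 TPM or more, the class to which all 6 belong. Of the 6, 3 were higher in pup 1, a side on which 45.2% of that class and 64.1% of all genes with signal lay, and 3 in pup 3, with 54.8% and 35.7%. Over that class the median difference was -0.13. Uchl1 passed 2-fold under FPKM (-1.23) and in TPM rescaled without spike-ins and mitochondrial genes (-1.02), and the other 5 genes passed it under no scaling tried. In the order of mean levels, Ubb stood above Uchl1, Sumo2 above Sumo3 and Nedd8 above Uba1 by more than the SD of either gene. Uchl1 exceeded Sumo2 by less than its own SD of 567 TPM, and Sumo3 exceeded Nedd8 by less than the SD of either. With 2 pups such an SD is itself poorly known.

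**Figure D2:**
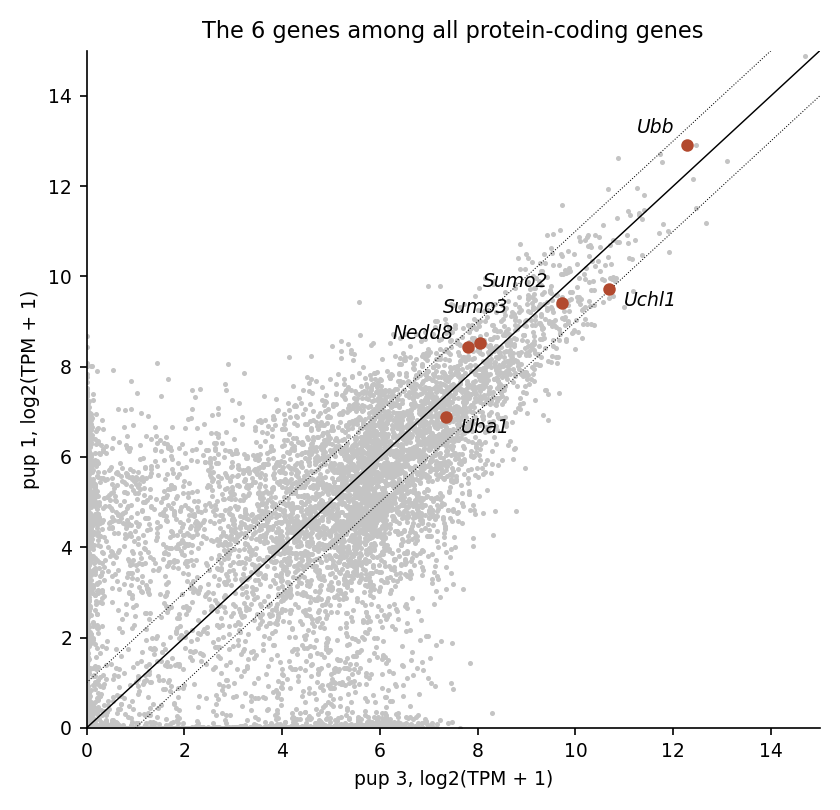
log2(TPM + 1) of every protein-coding nuclear gene with signal (11402 genes, grey) in pup 3 on the horizontal axis and pup 1 on the vertical axis, with the 6 genes in red. The solid line is equality and the dotted lines are 2-fold; the 6 genes lie inside the dotted lines, Uchl1 nearest to one of them at -0.96.

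The genes nearest to each of the 6 in level over the 2 libraries (Euclidean distance in log2(TPM + 1)) were sought among 11401 other protein-coding genes with signal. With only 2 libraries such nearness means a similar level in each, and 6 genes each lay within 0.1 of Uba1 and of Sumo2. Nearest to Ubb was Actb, cytoplasmic actin, with 7727 TPM in pup 1 and 5645 TPM in pup 3 (distance 0.18), then Eef1a1 and Actg1. Nearest to Uchl1 was Pebp1 with 826 TPM in pup 1 and 1684 TPM in pup 3 (0.05), then Uqcr11, a subunit of respiratory complex III, and Fabp5, a fatty acid binding protein. Those of Nedd8 were the ubiquitin ligase Nedd4 (345 TPM in pup 1 and 228 TPM in pup 3), Puf60 and Arpc1a. For Sumo2 they were Atp6v0b, a subunit of the vacuolar proton pump, Cnbp and Hint1. For Sumo3 they were Mapre1, which binds microtubule ends, Sox11, a transcription factor of young neurons, and Gps1, a COP9 signalosome subunit. For Uba1 they were Mpdu1, Calu and Dcps.

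The transcript tables divide each gene's level among its annotated transcripts. Of the 29 transcripts of the 6 genes, 15 had signal in both pups, 4 were at 0 in both, and 13 held 5% or more of their gene's TPM in at least 1 pup. The same transcript led in both pups for all 6 genes, as it did for 80.5% of 1151 abundant genes with more than 1 transcript. The largest change in the share of any transcript exceeded 10 percentage points for 4 of the 6, and for 52.7% of those 1151 genes, whose median was 11.2 points. Nedd8 changed least, by 0.26 points: Nedd8-201 held 99.4% in pup 1 and 99.6% in pup 3 (its deposited length is 602 bases, against 824 in M21). Shares below are percent of the gene's summed transcript TPM.

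**Figure D3:**
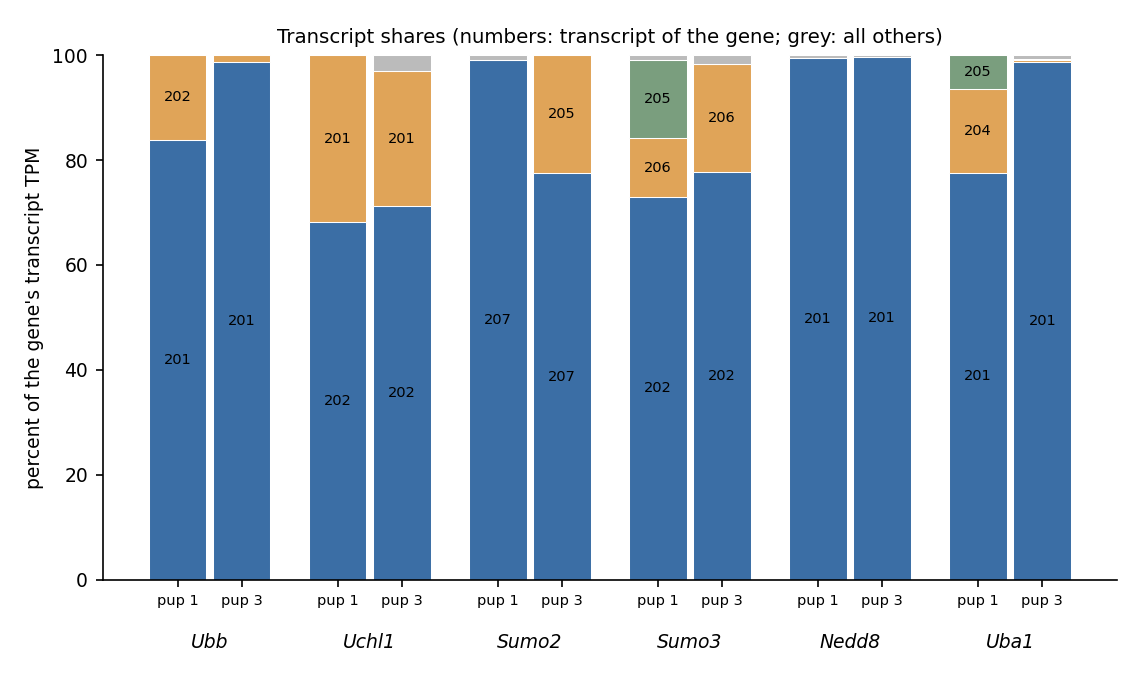
Percent of each gene's transcript TPM held by each transcript, pup 1 left and pup 3 right within a gene. Transcripts with 5% or more in either pup are coloured and numbered as in GENCODE, and the rest are grey. Sumo2-205, Sumo3-205 and Ubb-202 are wide in 1 pup and narrow or missing in the other, and Nedd8 is nearly 1 transcript in both.

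For Uchl1 the leading transcript was not the one annotated as coding. Uchl1-202, which M21 calls a retained intron transcript, held 68.1% in pup 1 and 71.2% in pup 3 (575 TPM in pup 1 and 1170 TPM in pup 3). Uchl1-201, which carries the complete coding sequence of 669 bases, held 31.8% in pup 1 and 25.9% in pup 3 (268.5 TPM in pup 1 and 426 TPM in pup 3). Both were lower in pup 1, and the leading place of Uchl1-202 was the same in both pups. The annotation separates them only at their beginning and by a few bases at their end: Uchl1-202 has 7 exons, 5 of them identical to exons of Uchl1-201, and lacks its first 2 exons, which hold 244 bases, 45 of them coding. It begins instead inside the intron before the third exon. That beginning is shown here (chromosome 5, 66676892 to 66676973, plus strand), with capitals for the 52 bases that are intronic in Uchl1-201 and lower case for the start of the exon they share.
Uchl1-202 start: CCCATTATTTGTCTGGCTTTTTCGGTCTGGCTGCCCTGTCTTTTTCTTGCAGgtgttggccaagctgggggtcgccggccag
Only 52 of the 881 stretches of 100 bases in Uchl1-202 (5.90%) occur in no other Uchl1 transcript, against 23.1% of those in Uchl1-201. The other reads of Uchl1 are divided by the authors' estimate, and the posterior SD of either count was 198 reads in pup 1 and 191 reads in pup 3. As shares of expected counts, Uchl1-202 averaged 66.1% and Uchl1-201 33.2%. A short transcript, Uchl1-203, was estimated at 3 reads in pup 1 against 437 in pup 3, which is 2.93% of the gene's TPM in pup 3. It consists of 2 exons near the gene's start, and no stretch of 100 bases in it occurs in another Uchl1 transcript. The deposited lengths of all 3 Uchl1 transcripts differ slightly from those of M21 (1167 against 1177 bases for Uchl1-201, 979 against 980 for Uchl1-202), so the structure is that of M21.

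Sumo3 had 3 transcripts of note. Sumo3-202, whose coding sequence is shown above in part, held 72.9% in pup 1 and 77.8% in pup 3. Sumo3-206, which lacks 42 bases (14 codons) at the start of the last coding exon, held 11.2% in pup 1 and 20.6% in pup 3. It had 743 reads in pup 1 against 849.5 in pup 3, which as a share of expected counts was 5.001% in pup 1 and 9.07% in pup 3. Sumo3-205 had 1322 reads, 55.0 TPM and 14.9% of TPM (8.89% of expected counts) in pup 1, and 0 reads in pup 3, with an upper credibility bound of 0.906 TPM. It carries an extra exon of 108 bases that ends the reading frame early, and M21 marks it as a target of nonsense-mediated decay, the pathway that degrades transcripts with an early stop. The bases that Sumo3-206 lacks and the coding start of the extra exon are shown (chromosome 10, plus strand, 77616148 to 77616207 and 77615927 to 77615953). In the first, capitals are coding in Sumo3-202 and absent from Sumo3-206, and lower case follows in both. In the second, capitals mark the stop codon.
Sumo3-202 at the 42 bases: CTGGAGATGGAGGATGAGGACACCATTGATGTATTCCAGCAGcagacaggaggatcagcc
Sumo3-205 extra exon start: ttcttagctctgactattcttctgTGA
After that stop codon the extra exon runs on for 81 bases. Of the stretches of 100 bases in Sumo3-205 and Sumo3-206, 21.3% and 14.1% occur in no other Sumo3 transcript.

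**Figure D4:**
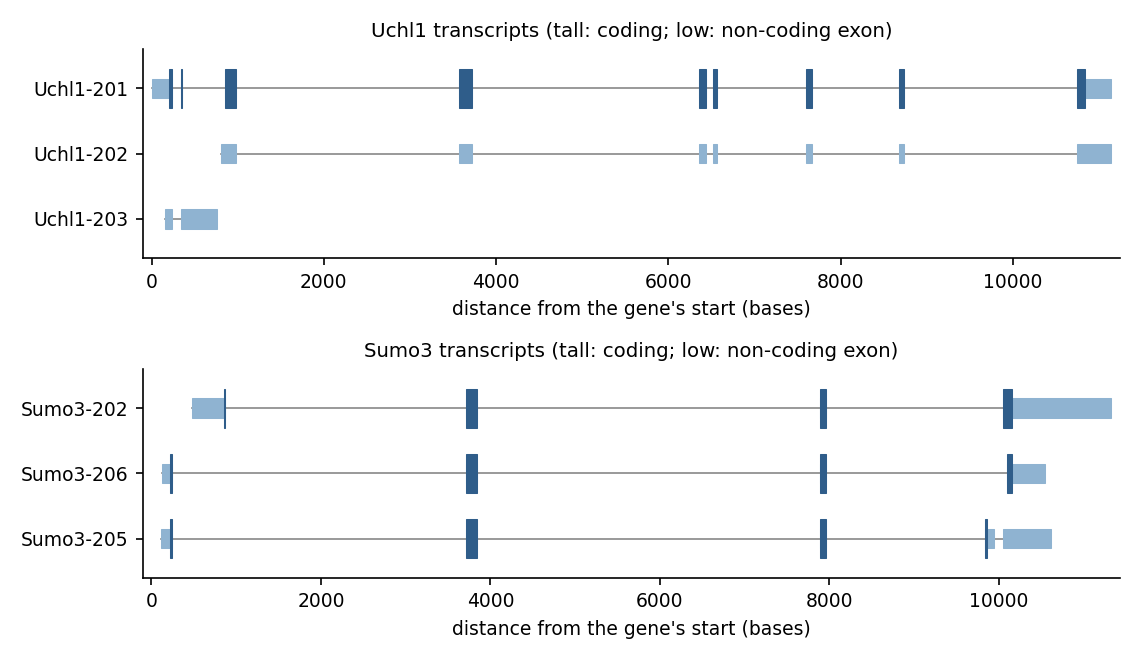
Exons of 3 Uchl1 and 3 Sumo3 transcripts in M21, drawn to scale against the distance in bases from the gene's start. Tall dark boxes are coding and low pale boxes are non-coding exons. Uchl1-202 starts just before the third exon of Uchl1-201, and Sumo3-205 has 1 more exon than the 4 of Sumo3-202.

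Sumo2-207, the complete coding transcript, held 99.1% of Sumo2 in pup 1 and 77.4% in pup 3. Nearly all of the remainder in pup 3 was Sumo2-205, whose annotated coding sequence has 156 bases against 285 in Sumo2-207. It had 0 reads in pup 1 (upper bound 10.8 TPM) and 3561 reads in pup 3 (189 TPM, 22.5%). In TPM, Sumo2-207 was nearly level, with 670.2 TPM in pup 1 against 651 TPM in pup 3. The lower total of Sumo2 in pup 1 thus lay in Sumo2-205. Only 4.94% of the stretches of 100 bases in Sumo2-207 and 4.80% of those in Sumo2-205 are found in no other Sumo2 transcript, so this division rests on few positions.

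Ubb-201 held 83.9% of Ubb in pup 1 and 98.6% in pup 3. Ubb-202, which starts 505 bases further along and whose annotated coding sequence ends after 708 bases, had 1239 TPM and 16.1% in pup 1 and 68.7 TPM and 1.38% in pup 3. The interval of Ubb-202 was 1150.1 to 1289 TPM in pup 1 and 9.31 to 116 TPM in pup 3, so the intervals did not overlap. Ubb-201 alone was also higher in pup 1, at 6446 TPM against 4920 TPM in pup 3.

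Uba1-201, the coding transcript of 26 exons and 3174 coding bases, held 77.5% in pup 1 and 98.6% in pup 3. In pup 1 the rest went mainly to the non-coding transcripts Uba1-204 (16.05%, 18.9 TPM) and Uba1-205 (6.47%, 7.62 TPM), which were at 0.42% and 0.20% in pup 3. Both are short, and their TPM in pup 1 came from 332 and 148 reads, while Uba1-201 had 9618 reads in pup 1 and 14765 in pup 3. In TPM, Uba1-201 was lower in pup 1, with 91.3 TPM against 160.4 TPM in pup 3. By reads instead of TPM the gene's difference was wider than the -0.46 above, -0.81 as CPM with TMM factors and -0.78 with DESeq2 size factors. The gene's effective length, an average over its transcripts by which TPM divides the reads, was 3231 bases in pup 1 and 3951 bases in pup 3.

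Other genes resemble some of the 6, and where the authors' counting shared reads between them the levels are uncertain. For Ubb, 7 genes matched the coding sequence over 100 bases or more at 90% identity or more. Gm1821, a near-copy that is 98.5% identical over 685 bases, had 1069 TPM in pup 1 and 1089 TPM in pup 3, which is 13.9% of Ubb in pup 1 and 21.8% in pup 3. Gm8797 had 34.4 TPM in pup 1 and 152 TPM in pup 3, and Gm12328 had 64.6 TPM in pup 1 and 44.9 TPM in pup 3. Of the stretches of 100 bases in Ubb-201, 52.4% occur exactly in another listed gene. The posterior SD of the Ubb count was 528 reads in pup 1 and 443 reads in pup 3, which is 0.20% and 0.28% of the count. With Gm1821 added, Ubb came to 8755 TPM in pup 1 and 6078 TPM in pup 3, a log2 difference of 0.53.

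Sumo2 had 14 matching genes, 7 with signal, and Gm10241, identical to it over all 285 coding bases, was the highest of these with 176 TPM in pup 1 and 166 TPM in pup 3. In Sumo2-207, 19.9% of the stretches of 100 bases occur in another gene. The other matches of Sumo2 with signal were Samd8, on the opposite strand, with 15.6 TPM in pup 1 against 14.9 TPM in pup 3, and Gm13430, Gm10540, Gm13690, Gm12335 and Gm12755, each at 1.52 TPM or less in both pups. Sumo3 had 2 matches, of which 1 is listed in the files, without signal, and Uchl1, Uba1 and Nedd8 had none in their coding sequences. Nedd8 overlaps the gene Gmpr2 on the opposite strand by 184 bases. Gmpr2 had 23.6 TPM in pup 1 and was listed at 0 in pup 3. This overlap is that of M21, and the strand setting of the counting is not given in the sources used here. The posterior SD of the Nedd8 count was 0 reads in both pups, so the deposited estimate divided none of its reads with another gene. The antisense gene Uchl1os was at 0 in both pups.

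Rps27a, which fuses ubiquitin to a ribosomal protein, had 622 TPM in pup 1 and 739 TPM in pup 3, a log2 difference of -0.25, and so was lower in pup 1 where Ubb was higher. The level of Rps27a stands for ribosomal protein as well as ubiquitin, and the 4 units of Ubb are counted here as 1 transcript.

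The wider pathway was described by 9 lists with 179 genes beside the 6. Of these, 113 were found in both libraries, 42 only in that of pup 1, 5 only in that of pup 3, and 19 in none. Over all 21461 nuclear protein-coding genes the same counts were 5305 in both, 3743 only in pup 1, 905 only in pup 3 and 11508 in none. Among the 167 listed genes with signal, 67 were higher in pup 1 by 2-fold or more, 30 were higher in pup 3 by 2-fold or more, and 70 lay within 2-fold. Over all protein-coding genes with signal, 42.9% were higher in pup 1 and 20.0% in pup 3 by that measure. The pathway's shares, 40.1% and 18.0%, were near these, and its median log2 difference of 0.56 lay near the 0.49 of all genes with signal. The neddylation list had 3 of 20 genes with signal higher in pup 1 by 2-fold and 7 higher in pup 3, with a median of -0.03, and with TMM factors these counts were 6 and 7. The list of ubiquitin-like modifiers had 2 of 15 higher in pup 1 by 2-fold (13.3%, against 42.9% of all genes). It had 3 higher in pup 3 by 2-fold (20%, against 20.0%), and its median was -0.29. None of these shares was tested.

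**Figure D5:**
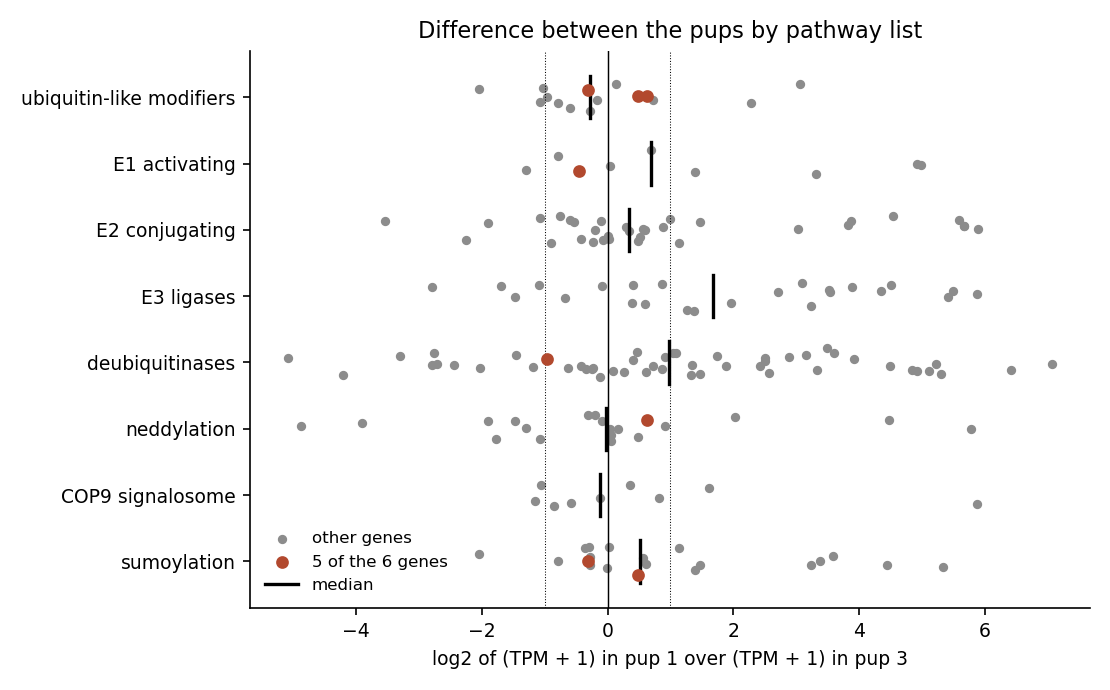
log2 difference between the pups (pup 1 over pup 3, TPM + 1) of each gene with signal in 8 of the pathway lists, with the members Uchl1, Uba1, Nedd8, Sumo2 and Sumo3 in red, other genes in grey and a black bar at each list's median. Dotted lines are 2-fold. These members lie between -0.96 and 0.63, and each list holds other genes beyond 2-fold.

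In the ubiquitin cascade, 5 of 10 E1 genes were found in both pups (50%, against 24.7% of all nuclear protein-coding genes). The E1 genes next to Uba1 in level were Uba3, a subunit of the Nedd8-activating enzyme, with 65.3 TPM in pup 1 and 161 TPM in pup 3 (-1.29), and Sae1, a subunit of the Sumo-activating enzyme, with 154 TPM in pup 1 and 58.1 TPM in pup 3 (1.39). Sae1 was thus higher in pup 1, while Uba3 and Uba1 were lower. The other subunits of these enzymes did not follow. Nae1, the partner of Uba3, had 97.35 TPM in pup 1 and 94.5 TPM in pup 3 (0.04). Uba2, the partner of Sae1, had 41.3 TPM in pup 1 and 72.1 TPM in pup 3 (-0.79). Of 33 E2 genes, which carry the activated modifier, 26 were found in both pups (78.8%). Of the 33, 10 were higher in pup 1 by 2-fold (30.3%, against 42.9% of all genes with signal) and 4 in pup 3 (12.1%, against 20.0%). Ube2v1, a partner of the E2 enzyme Ube2n, had 695 TPM in pup 1 and 46.7 TPM in pup 3, and its sister Ube2v2 had 247 TPM in pup 1 and 333 TPM in pup 3.

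Among 28 genes on a list of neural E3 ligases and their subunits, 13 were found in both pups (46.4%, against 24.7% of all nuclear protein-coding genes). Of the 24 with signal 14 were higher in pup 1 by 2-fold (58.3%, against 42.9% of all genes) and 4 in pup 3 (16.7%, against 20.0%). Their median was 1.67. At a mean of 10 TPM or more these counts were 7 and 4 of 15, with a median of 0.60. The highest was Skp1a, a subunit of some cullin ligases, with 481 TPM in pup 1 and 1339 TPM in pup 3 (-1.47). Nedd4 had 345 TPM in pup 1 and 228 TPM in pup 3 (0.60), and Trim32 had 245 TPM in pup 1 and 102 TPM in pup 3 (1.26). Of 52 genes on the deubiquitinase list 29 were found in both pups (55.8%). Of the 50 with signal 25 were higher in pup 1 by 2-fold and 10 in pup 3, against 42.9% and 20.0% of all genes. At a mean of 10 TPM or more these counts were 13 and 7 of 35, against 38.1% and 25.7% of all genes at that level. Uchl1 was the highest gene on this list, which also holds proteasome subunits. Next on it were the subunits Psmd7, with 294 TPM in pup 1 and 372 TPM in pup 3, and Psmd14, with 276 TPM in pup 1 and 302 TPM in pup 3.

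In the Nedd8 pathway 17 of 22 genes were found in both pups (77.3%, against 24.7% of all nuclear protein-coding genes). Rbx1, the RING subunit that joins the E2 enzyme to most cullins, had 239 TPM in pup 1 and 230.5 TPM in pup 3 (0.05). It was close to the level of Nedd8 in pup 3 and below it in pup 1. Rnf7, the RING subunit that works with Cul5, had 108 TPM in pup 1 and 302 TPM in pup 3 (-1.47), and so was lower in pup 1 where Nedd8 was higher. The COP9 signalosome, which removes Nedd8 from cullins, had 8 of 9 genes in both pups (88.9%). Its subunit Gps1 had 354 TPM in pup 1 and 277 TPM in pup 3, and its catalytic subunit Cops5 had 212 TPM in pup 1 and 386 TPM in pup 3 (-0.86). Cops8 had 184 TPM in pup 1 and 277 TPM in pup 3.

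In the Sumo pathway 14 of 22 genes were found in both pups (63.6%, against 24.7% of all nuclear protein-coding genes). Of the 20 with signal 8 were higher in pup 1 by 2-fold (40%, against 42.9% of all genes) and 1 in pup 3 (5%, against 20.0%). At a mean of 10 TPM or more these counts were 5 and 1 of 15, against 38.1% and 25.7% of all genes at that level. The list's median there was -0.01 in place of 0.52. Among the 16 ubiquitin-like modifiers, 14 were found in both pups (87.5%), and Sumo2 was the highest. After it came Fau, a ubiquitin-like fusion to a ribosomal protein, with 595 TPM in pup 1 and 539.9 TPM in pup 3 (0.14), and Map1lc3b, which is attached to autophagosome membranes, with 632 TPM in pup 1 and 384 TPM in pup 3 (0.72).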

How the data were processed

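RNA was measured in 2 libraries of 1 group, and the members and lists were chosen with earlier results of these data known. The authors deposited expected counts, in which reads that map to several features are divided among them, and these enter the scaling factors rounded to whole numbers. They also deposited TPM, FPKM and each transcript's percent within its gene, per the file headers, which use the column names of RSEM output. Each effective length, posterior SD and credibility bound is a deposited score without a stated level. The deposited percent was not used: shares were computed from transcript TPM. The assembly was mm10 and the annotation M4, per a note deposited beside the tables. The aligner, the counter and the strand setting: not given in the sources used here.

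Symbols, structures and coding sequences came from GENCODE M21, also on mm10, by identifier without version (42462 of 43346 genes). All 277 listed symbols matched. Of the 29 transcripts 28 are in M21 and 24 have the same length there. 26248 short entries without reads and 97 spike-in entries were left out of gene counts. The difference between pups is log2 of (TPM + 1) in pup 1 over pup 3. A gene was found at 1 TPM or more. Exact stretches of 100 bases were compared on the same strand between M21 transcripts, and similar genes were sought with BLAST+ 2.17.0 at 90% identity over 100 bases.

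The genes named were the 6 members, the 3 highest of each pathway list with the ubiquitin precursors (some of these genes are not reported here), the 3 nearest in level to each member, transcripts at 5% or more, and similar genes with signal. From this rule 1 part was narrowed: only matches to coding sequence are named, because 397 genes matched a transcript of Uba1 (248 with signal) through its non-coding transcripts, against none in its coding sequence. Uchl1-203, Gmpr2, Uchl1os, Nae1 and Uba2 were chosen after their values were seen. The ratio step was tested on simulated data with counting (Poisson) error only, and there the ratios were centred on the unchanged genes. The ratios reported here were not centred, and the noise of amplification was not simulated. Alternatives covered pseudocounts, posterior mean TPM, FPKM, CPM with edgeR 4.0.16 TMM factors, DESeq2 1.42.0 size factors, rescaling without spike-ins and mitochondrial genes, filters, and each pup alone, with Python 3.11.15 and R 4.3.3. The reads carry no molecular identifiers, so precision from read numbers covers counting error only.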

Additional observations from a re-analysis of the deposited data

How the results depend on the processing

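No paired analysis was possible because both libraries belong to 1 group. None of the 49 recomputed log2 differences of the 6 genes changed sign. FPKM moved the median difference of abundant genes by -0.26, and with it gave 0.36 for Ubb, -1.23 for Uchl1, -0.72 for Uba1, 0.37 for Nedd8, -0.58 for Sumo2 and 0.22 for Sumo3. Relative to that median, the difference was 0.75 for Ubb and -0.83 for Uchl1 under TPM and under FPKM. With TMM factors the difference was 0.48 for Ubb, -0.81 for Uba1 and 0.42 for Sumo3, and with DESeq2 size factors 0.50, -0.78 and 0.44 for these genes. Without spike-ins and mitochondrial genes it was 0.56 for Ubb, -1.02 for Uchl1, -0.52 for Uba1, -0.38 for Sumo2 and 0.42 for Sumo3. With Gm1821 added to Ubb, an alternative chosen after seeing the data, it was 0.53. These values lay outside the 95% Clopper-Pearson interval of the reads.

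The mean levels moved by less than 1 SD under posterior means, without spike-ins and mitochondrial genes and, for Ubb, with Gm1821. With 2 pups, leaving out 1 cannot move a mean by 1 SD and shows no stability. Each pup alone gave 4989 to 7685 TPM for Ubb, 843 to 1645 for Uchl1, 118 to 163 for Uba1, 222 to 345.2 for Nedd8, 676 to 841 for Sumo2 and 265 to 369.96 for Sumo3. By expected counts in place of TPM, Sumo3-202 averaged 88.0% of its gene, Uchl1-202 66.1% and Sumo3-206 7.04%, and of the 26 shares recomputed with both pups kept 4 moved by more than 1 SD. With only genes at a mean of 10 TPM or more, 44 pathway genes were higher in pup 1 by 2-fold, and of all genes 38.1% were higher in pup 1 and 25.7% in pup 3. At 100 TPM or more these were 16.7% and 19.2%. Of 54 counts for single lists 5 moved by over 1.5 times.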
